A study of Homo sapiens with 2 samples.

Results

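The 9 genes described here carry antigen presentation by MHC class I and its control: HLA-B, HLA-C, HLA-E and HLA-F, B2M, TAP1, PSMB9, NLRC5 and CIITA. Their CpG methylation was measured in SH-SY5Y, a neuroblastoma cell line long established from a human tumour, exposed to Mdivi-1 or to DMSO, the control. Mdivi-1 is widely applied as a chemical inhibitor of mitochondrial fission. Each group held 1 library of bisulfite-converted, capture-enriched genomic DNA, so no difference has a replicate check. The labels give no dose, exposure time or passage. A CpG was a member when the deposited promoter or gene annotation named 1 of the 9 genes and both libraries had at least 10 reads there. This gave 984 of 2523690 CpGs, and all 9 genes were represented. The members lay on chromosome 6 (HLA-B, HLA-C, HLA-E, HLA-F, TAP1 and PSMB9), chromosome 15 (B2M) and chromosome 16 (NLRC5 and CIITA).

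MHC class I molecules show peptides from inside the cell to CD8+ T cells and to natural killer cells. Proteasomes cut proteins into peptides, TAP carries the peptides into the endoplasmic reticulum, and there they are bound by a heavy chain paired with beta-2 microglobulin. Interferon raises the transcription of these genes, through IRF and STAT factors and through NLRC5, which acts at a conserved promoter module bound by RFX, CREB/ATF and NF-Y. Neuroblastoma cells are known for low MHC class I at the surface. Expression was not analysed here, so the values below are methylation levels alone.

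The promoter sequences show how CpG-rich these start regions are and which regulatory motifs contain a CpG. They are the 250 bases before the RefSeq start of each gene on its own strand, from GRCh38.p14, 5' to 3', with CpGs in capitals. The windows are chr6:31357180-31357429 (minus strand) for HLA-B, chr6:31272093-31272342 (minus strand) for HLA-C, chr6:29723184-29723433 (plus strand) for HLA-F and chr15:44711267-44711516 (plus strand) for B2M. Those of the divergent pair are chr6:32853705-32853954 (minus strand) for TAP1, at the more upstream of its RefSeq starts, and chr6:32853942-32854191 (plus strand) for PSMB9. HLA-E, NLRC5 and CIITA are named without a sequence. The measured positions below are in hg19, and no measured CpG was placed on these sequences.
HLA-B: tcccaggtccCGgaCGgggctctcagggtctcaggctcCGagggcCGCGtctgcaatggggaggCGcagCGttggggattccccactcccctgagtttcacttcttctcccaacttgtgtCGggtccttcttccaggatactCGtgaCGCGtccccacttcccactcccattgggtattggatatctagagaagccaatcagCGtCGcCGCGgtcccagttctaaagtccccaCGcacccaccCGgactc
HLA-C: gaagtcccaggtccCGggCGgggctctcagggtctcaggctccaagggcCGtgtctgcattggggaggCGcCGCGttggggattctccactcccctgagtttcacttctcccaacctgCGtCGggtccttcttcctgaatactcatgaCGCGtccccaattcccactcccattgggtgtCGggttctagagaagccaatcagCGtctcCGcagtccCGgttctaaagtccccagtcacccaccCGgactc
HLA-F: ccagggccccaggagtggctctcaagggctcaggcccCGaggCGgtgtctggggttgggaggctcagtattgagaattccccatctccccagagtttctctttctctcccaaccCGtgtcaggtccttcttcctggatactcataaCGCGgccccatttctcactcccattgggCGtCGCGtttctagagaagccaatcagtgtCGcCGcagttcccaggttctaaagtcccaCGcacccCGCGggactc
B2M: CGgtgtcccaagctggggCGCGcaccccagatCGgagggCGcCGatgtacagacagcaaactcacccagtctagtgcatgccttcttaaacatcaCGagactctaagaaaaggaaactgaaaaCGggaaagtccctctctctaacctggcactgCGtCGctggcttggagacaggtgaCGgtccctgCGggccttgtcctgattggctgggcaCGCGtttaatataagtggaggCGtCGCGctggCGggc
TAP1: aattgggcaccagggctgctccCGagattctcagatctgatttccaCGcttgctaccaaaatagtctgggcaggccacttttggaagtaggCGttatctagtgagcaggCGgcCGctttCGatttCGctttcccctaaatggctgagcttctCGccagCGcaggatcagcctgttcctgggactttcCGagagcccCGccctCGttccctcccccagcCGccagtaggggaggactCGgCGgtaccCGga
PSMB9: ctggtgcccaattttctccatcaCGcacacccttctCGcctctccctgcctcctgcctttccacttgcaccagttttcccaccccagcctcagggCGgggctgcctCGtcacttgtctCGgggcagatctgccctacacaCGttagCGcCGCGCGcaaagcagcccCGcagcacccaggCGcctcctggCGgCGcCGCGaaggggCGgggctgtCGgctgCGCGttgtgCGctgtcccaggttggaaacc

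The windows hold 17 CpGs for HLA-B, 15 for HLA-C, 13 for HLA-F, 18 for B2M, 16 for TAP1 and 21 for PSMB9, against a median of 11 over 35116 RefSeq promoters of the same length. Both strands were searched for 5 motifs. The CREB/ATF half-site TGACG, which itself contains a CpG, was found in the HLA-B, HLA-C, B2M and PSMB9 windows and in 21.2% of all promoters. CCAAT, the NF-Y motif, was found in all 6 windows and in 32.0% of promoters. The TAP1 and PSMB9 windows overlap by 13 bases, and the CCAAT match of each is the same stretch of the genome. The IRF-type tandem GAAANNGAA was found in B2M (2 overlapping matches), HLA-F (1 match) and TAP1 (2 overlapping matches, each with a CpG), and in 6.88% of promoters. The kappaB-type motif GGGNNTTNC matched in HLA-B, B2M and TAP1 and in 14.2% of promoters, and the GC box GGGCGG matched in HLA-C, TAP1 and PSMB9 and in 42.6%. A match is a string of letters, not a measured site.

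The heavy chain windows are close relatives. HLA-B and HLA-C were identical at 91.9% of 246 aligned bases, HLA-B and HLA-F at 83.7% of 245, and HLA-C and HLA-F at 83.1% of 243. Of the 17 CpGs of HLA-B and the 15 of HLA-C, 11 were shared. Reads of such copies can be placed at the wrong gene, and the sources used here do not say how the authors treated reads that map to several places. Of the 1048 positions annotated to the 9 genes, 9 had fractional coverage (0.859%), 7 of them in HLA-C and 2 in HLA-B, against 0.388% of the whole table. HLA-E and HLA-F had none. Values of the HLA heavy chains carry this uncertainty.

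Over the 984 CpGs, mean methylation was 33.7% in the Mdivi-1 library and 33.1% in the control, a difference of 0.616 percentage points. Here and below a difference is Mdivi-1 minus control in points. Its counting error is given as a pair, the first taking CpGs as independent and the second taking all reads as shared between CpGs; for the 984 CpGs these were 0.257 and 10.5 points. Of the CpGs, 430 were higher in the Mdivi-1 library, 401 were lower and 153 were equal. They were covered by 44.3 reads on average in the Mdivi-1 library and by 37.3 in the control. Over the whole table the levels were 43.1% with Mdivi-1 and 42.6% in the control, a difference of 0.460 points, so the members lay lower in both libraries and their difference was of the same order. The counting errors cover read counting alone, since reads can share a PCR origin, and not the spread between cultures.

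Single CpGs were compared by a two-sided Fisher exact test on methylated and unmethylated reads, adjusted by Benjamini-Hochberg over all 2523690 CpGs; this compares the reads of these libraries, not the conditions. None of the 984 member CpGs was called at an adjusted p under 0.05 with at least 20 points, against 0.000634% of the table. At an unadjusted p under 0.05 there were 14 member CpGs (1.42%), against 2.02% of the table. With no test, 35 members (3.56%) differed by at least 20 points, against 2.74% of all CpGs. Of these, 22 were higher with Mdivi-1 (2.24%, against 1.53% of all CpGs) and 13 were lower (1.32%, against 1.21%). HLA-F held 7 of the higher CpGs and 2 of the lower ones, NLRC5 held 6 and 6, and CIITA held 4 lower ones and no higher one. TAP1 held 6 higher ones and no lower one and PSMB9 held 6 and 1, at CpGs that are partly the same. HLA-B held 2 higher ones and HLA-E 1, with no lower one in either. B2M and HLA-C held none.

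A rule of size was applied to groups with 5 CpGs or more: the mean had to differ by 10 points or more, with 80% or more of the CpGs on that side. None of the 9 member promoters met it, against 0.293% of 23526 promoters, and none of 59 windows of 1 kb met it, against 0.953% of 123163 windows. CpGs were also classed by the deposited island annotation, as lying in a CpG island (a CpG-dense stretch), in its shore (next to the island), in its shelf (beyond the shore) or outside these. Applied to CpGs of 1 gene, 1 region class and 1 island class, the rule was met by 1 of 58 member groups (the 5' UTR island CpGs of HLA-F), against 0.780% of 116801 such groups. This last use of the rule was chosen after the HLA-F value had been seen, so it describes that value and supports nothing.

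**Figure D1:**
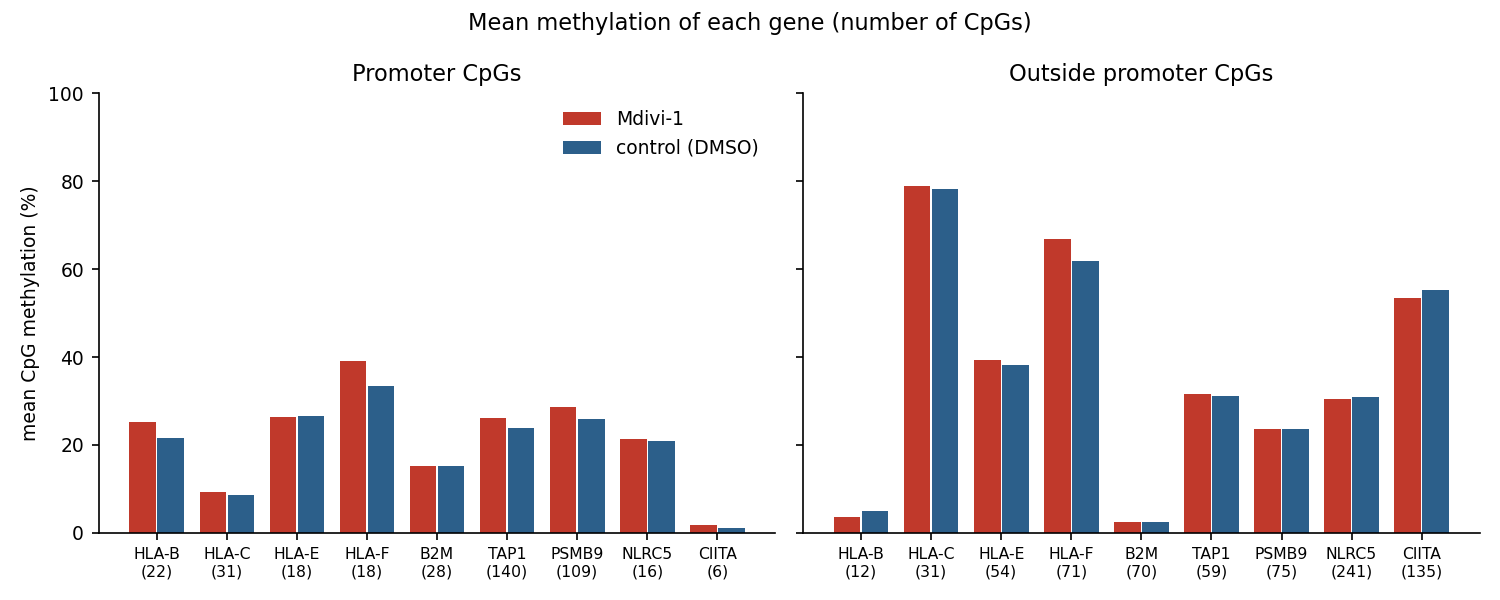
Mean CpG methylation (%) of each gene in promoter CpGs (left) and in its other CpGs (right), with Mdivi-1 bars left of control bars and the number of CpGs in parentheses; there is 1 library per group, so no error bar between cultures can be drawn. The level differed far more between genes than between libraries: promoter means ran between 1.67% (CIITA) and 39.0% (HLA-F) with Mdivi-1, and between 1.05% and 33.4% for the same genes in the control.

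Among the heavy chains, HLA-F, a nonclassical class I molecule, had the largest difference. Its 89 CpGs averaged 61.2% in the Mdivi-1 library and 56.1% in the control, 5.06 points higher with Mdivi-1 (counting errors 1.10 and 12.5 points), and 55 of them were higher and 30 lower. Among 21660 genes with at least 20 CpGs, 115 had a larger difference; the median of those genes was 0.332 points and their central 95% ran from -1.98 to 3.12 points. Weighting CpGs by their reads gave 3.12 points for HLA-F. The 18 promoter CpGs averaged 39.0% with Mdivi-1 and 33.4% in the control, a difference of 5.66 points (counting errors 2.18 and 10.5), which was 1.98 points with pooled reads. With all reads taken as shared, each of these differences was smaller than its counting error.

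Within HLA-F, the difference was uneven. The 10 island CpGs of the 5' UTR, at chr6:29691136-29691228 in hg19, averaged 71.6% in the Mdivi-1 library and 59.4% in the control, a difference of 12.3 points (counting errors 3.13 and 10.6). All 10 were higher with Mdivi-1, by 5.56 to 21.7 points, with levels of 45.1% to 100% in the Mdivi-1 library and 38.1% to 80.8% in the control. They lie close enough for a single read to cover several of them, so they are not independent. Under the other settings tried, this difference stayed between 10.4 and 12.3 points. The 18 promoter CpGs run to position 29691204, so both sets share CpGs and are not separate results. The 8 upstream CpGs alone differed by 3.17 points and the 2 intergenic ones by -4.46. The 11 intronic shore CpGs averaged 34.4% with Mdivi-1 and 21.3% in the control, a difference of 13.1 points (counting errors 3.19 and 11.1), with 8 higher and 2 lower; it was 6.04 points over the 3 CpGs with 30 reads. The 36 exonic island CpGs averaged 78.0% with Mdivi-1 and 74.6% in the control, and the difference of 3.31 points turned to -2.70 points over the 13 with 20 reads.

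HLA-F also held 6 of the 14 member CpGs with an unadjusted p under 0.05. At the exonic CpG of smallest p, position 29691495 in hg19, 16 of 17 reads were methylated in the Mdivi-1 library (94.1%) and 8 of 14 in the control (57.1%), with a Fisher exact p of 0.0281 and a Benjamini-Hochberg adjusted p of 1. At intronic position 29692400, 24 of 44 reads were methylated with Mdivi-1 and 5 of 20 in the control, with an unadjusted Fisher exact p of 0.0334. In the 1 kb window of largest difference among those with at least 5 CpGs, chr6:29692070-29692583, 22 exonic and intronic CpGs averaged 54.3% with Mdivi-1 and 46.2% in the control, a difference of 8.13 points.

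**Figure D2:**
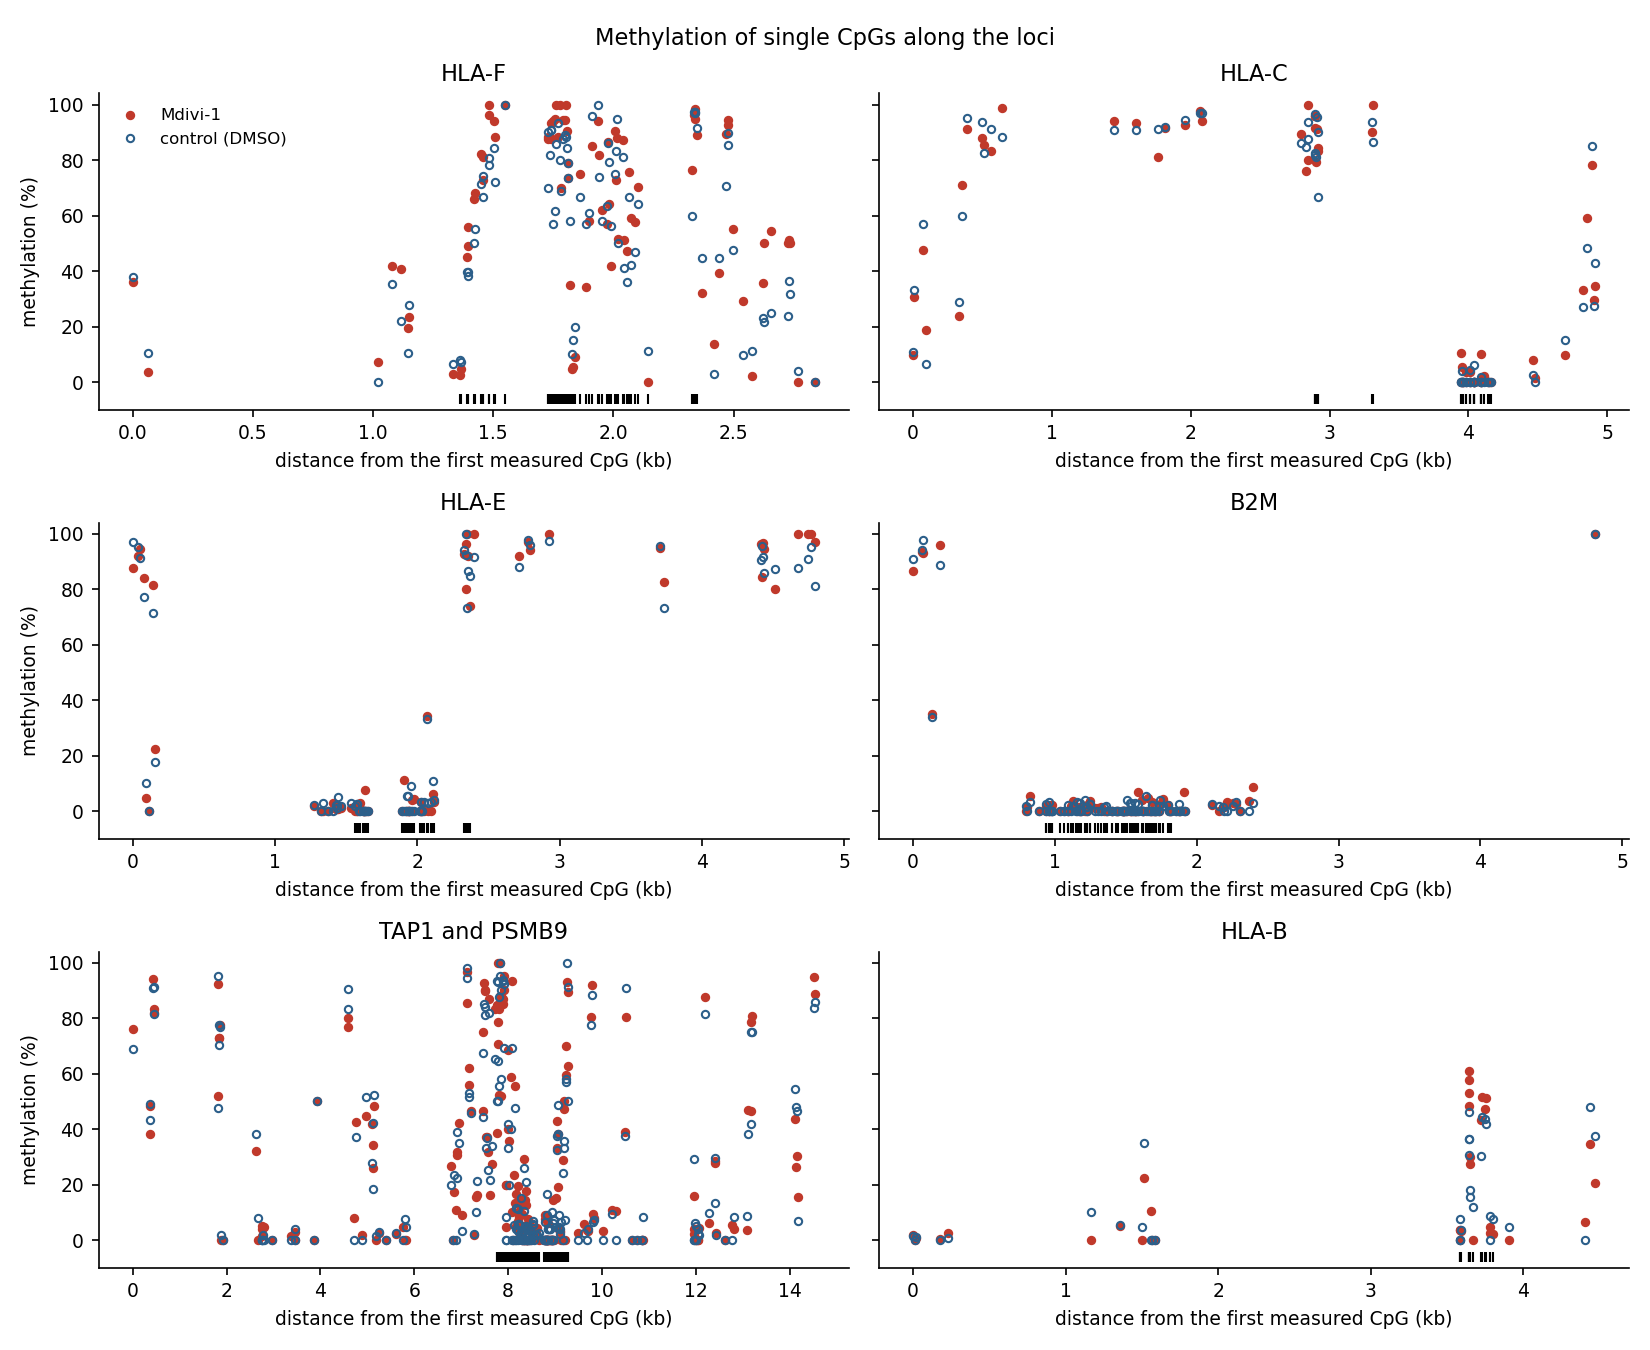
Methylation (%) of single CpGs along 6 loci against distance from the first measured CpG (kb), with filled points for Mdivi-1 and open points for the control and black ticks under CpGs annotated to islands. B2M and the HLA-E and HLA-C start regions were near 0 in both libraries, and HLA-F was methylated across most of its island. The TAP1 and PSMB9 island was low at its centre. The adjoining 1 kb window on the TAP1 side averaged 62.3% with Mdivi-1 and 60.0% in the control. That on the PSMB9 side averaged 26.0% with Mdivi-1 and 25.1% in the control.

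HLA-B and HLA-C, classical heavy chains, differed in where they were methylated. The 22 HLA-B promoter CpGs averaged 25.1% in the Mdivi-1 library and 21.5% in the control, a difference of 3.62 points (counting errors 2.33 and 11.4), with 13 higher and 8 lower. It was -0.167 points over the 11 of them annotated to no other gene and 1.25 points over the 5 with 30 reads. Its 18 upstream island CpGs averaged 27.3% with Mdivi-1 and 21.3% in the control, whereas its 12 CpGs outside the promoter were at 3.62% with Mdivi-1 and 4.85% in the control. At the HLA-B CpG of smallest p, position 31325059, 11 of 18 reads were methylated with Mdivi-1 and 4 of 13 in the control, with a Fisher exact p of 0.149.

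The 23 upstream island CpGs of HLA-C were at 1.59% with Mdivi-1 and 0.708% in the control, and its 7 upstream shore CpGs were at 31.4% with Mdivi-1 and 29.4% in the control. Outside the promoter its 31 CpGs were at 79.0% with Mdivi-1 and 78.3% in the control. Over all 62 HLA-C CpGs the difference was 0.763 points (counting errors 0.880 and 10.7), and it turned to -2.36 points with pooled reads. At its CpG of smallest p, position 31236599 in the 3' UTR, 78 of 79 reads were methylated with Mdivi-1 and 38 of 43 in the control, with an unadjusted Fisher exact p of 0.0203.

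HLA-E, a nonclassical heavy chain that presents leader peptides to NKG2 receptors, had a low start region between methylated flanks. Its 10 upstream CpGs were at 1.001% with Mdivi-1 and 1.74% in the control, its 21 intronic island CpGs at 3.08% with Mdivi-1 and 3.13% in the control, and its 8 intergenic shore CpGs at 58.3% with Mdivi-1 and 57.5% in the control. The 18 promoter CpGs averaged 26.5% with Mdivi-1 and 26.5% in the control, a difference of -0.0742 points (counting errors 1.09 and 7.35). Pooled reads gave 4.09 points over the 18. Pooled by class, the 10 upstream CpGs differed by -0.773 points and the 8 intergenic shore CpGs by 0.615, so 4.09 lies outside both. The upstream CpGs had 100.2 reads on average with Mdivi-1 and 84.7 in the control. The intergenic ones had 62.6 with Mdivi-1 and 36.8 in the control. The 3 shelf CpGs of its 3' UTR were at 98.99% with Mdivi-1 and 89.04% in the control, each of them higher with Mdivi-1. At position 30458159 in an exon, 26 of 26 reads were methylated with Mdivi-1 and 11 of 15 in the control, with an unadjusted Fisher exact p of 0.0135.

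B2M, the light chain shared by all class I molecules, was nearly free of methylation in both libraries. Its 72 island CpGs were at 0.791% with Mdivi-1 and 0.914% in the control, a difference of -0.123 points (counting errors 0.236 and 1.95), with 18 higher, 20 lower and 34 equal. Under 10% methylation were 92 of its 98 CpGs in the Mdivi-1 library and 92 of 98 in the control. The exceptions included 4 intergenic shore CpGs, at 77.0% with Mdivi-1 and 79.1% in the control. No B2M CpG had a p under 0.05; the smallest was 0.0911 by the Fisher exact test, at position 45002715, with 90 of 94 reads methylated with Mdivi-1 and 71 of 80 in the control. The control level of B2M was above that of 8.73% of the 21660 genes.

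TAP1, a subunit of the peptide transporter, and PSMB9, an interferon-inducible catalytic subunit of the immunoproteasome, are read from a shared start region in opposite directions. Their RefSeq starts lie 487 bases apart, and 152 CpGs are annotated to both genes, so their values are not separate measurements. Those 152 CpGs averaged 27.3% in the Mdivi-1 library and 25.1% in the control, a difference of 2.20 points (counting errors 0.696 and 10.8), with 79 higher, 51 lower and 22 equal. The 47 CpGs of TAP1 alone were at 29.0% with Mdivi-1 and 29.0% in the control, and the 32 of PSMB9 alone at 23.4% with Mdivi-1 and 23.9% in the control. The promoter annotation gave 2.25 points for TAP1 over 140 CpGs (counting errors 0.717 and 10.8) and 2.83 points for PSMB9 over 109 CpGs (counting errors 0.852 and 11.3). With pooled reads these were 6.68 and 7.31 points. Pooled within single 1 kb windows of the shared region, the differences were 2.03 points (38 CpGs), 3.36 points (73 CpGs) and 4.59 points (34 CpGs). Taking CpGs by the region annotation (upstream or 5' UTR) in place of the promoter annotation turned both promoter differences. The differences became -0.680 points over 10 CpGs of TAP1 and -2.67 points over 3 CpGs of PSMB9. All of these were 5' UTR CpGs, and none of the 16 upstream island CpGs of the shared region entered.

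The centre of the shared region was low. Its 16 upstream island CpGs were at 1.92% with Mdivi-1 and 2.78% in the control, with 13.2 reads per CpG in the Mdivi-1 library and 19.7 in the control, and its 11 island CpGs of the 5' UTR were at 1.71% with Mdivi-1 and 3.11% in the control. The 67 exonic island CpGs were at 28.03% with Mdivi-1 and 24.3% in the control, a difference of 3.70 points (counting errors 1.20 and 13.4), with 35 higher and 22 lower; it was 8.31 points with pooled reads. The 31 intronic shore CpGs of TAP1 were at 38.3% with Mdivi-1 and 35.2% in the control, with 25 higher and 5 lower; the difference of 3.16 points was 0.895 points with pooled reads. At the shared CpG of smallest p, exonic position 32821300, 4 of 30 reads were methylated with Mdivi-1 and 0 of 36 in the control, with an unadjusted Fisher exact p of 0.0380.

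NLRC5, the transactivator of class I genes, had an unmethylated island and a partly methylated gene body. Its 41 island CpGs were at 1.34% with Mdivi-1 and 2.78% in the control, a difference of -1.44 points (counting errors 0.642 and 4.08), with 6 higher, 16 lower and 19 equal. Its 112 intronic CpGs outside islands were at 30.6% with Mdivi-1 and 31.3% in the control. Over all 257 CpGs the difference was -0.344 points (counting errors 0.521 and 9.60), and it turned to 0.854 points over the 146 with 30 reads. The 16 promoter CpGs differed by 0.456 points (counting errors 2.15 and 11.2), and by 4.41 points with pooled reads. The smallest p of any member was at intronic position 57037533, where 0 of 86 reads were methylated with Mdivi-1 and 5 of 53 in the control (Fisher exact p 0.00714, Benjamini-Hochberg adjusted p 1).

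CIITA, the transactivator of MHC class II genes, which can also act on class I promoters, had the lowest difference of the 9 genes. Its 141 CpGs averaged 51.3% in the Mdivi-1 library and 53.1% in the control, a difference of -1.80 points (counting errors 0.786 and 11.7), with 60 higher and 73 lower. Of the 21660 genes, 2.99% lay lower. The difference turned to 0.173 points over the 102 CpGs with 20 reads and was 0.139 points over the 64 with 30 reads. The 36 intronic island CpGs were at 45.3% with Mdivi-1 and 49.7% in the control, with 8 higher and 25 lower, and the difference of -4.38 points was -1.63 points over the 17 with 20 reads. The 33 exonic shore CpGs were at 52.6% with Mdivi-1 and 57.3% in the control, and the difference of -4.76 points turned to 5.31 points over the 5 with 30 reads. The 7 intronic shelf CpGs went the other way, 38.7% with Mdivi-1 and 32.0% in the control, all 7 higher, though pooled reads gave -0.542 points. Its 6 promoter CpGs were at 1.67% with Mdivi-1 and 1.05% in the control. In the 1 kb window of largest difference among those with at least 5 CpGs, chr16:11001004-11002000, 29 exonic CpGs averaged 49.5% with Mdivi-1 and 55.9% in the control. At exonic position 11016058, its CpG of smallest p, 51 of 58 reads were methylated with Mdivi-1 and 61 of 62 in the control, with an unadjusted Fisher exact p of 0.0285.

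Among windows with at least 5 CpGs, those of largest difference in the other genes were smaller in size than in HLA-F and CIITA. They differed by -6.31 points in NLRC5 (5 CpGs at its 3' end), by 4.86 points in HLA-E (9 shelf CpGs at its 3' end) and by -4.40 points in PSMB9 (6 CpGs at its 3' end). In HLA-B the value was 4.22 points (19 upstream CpGs), in TAP1 3.02 points (73 CpGs of the shared island), in HLA-C 1.42 points (13 CpGs of the gene body) and in B2M -0.251 points (5 shore CpGs). Windows with fewer CpGs reached larger differences, up to -18.6 points over 3 CpGs of NLRC5.

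**Figure D3:**
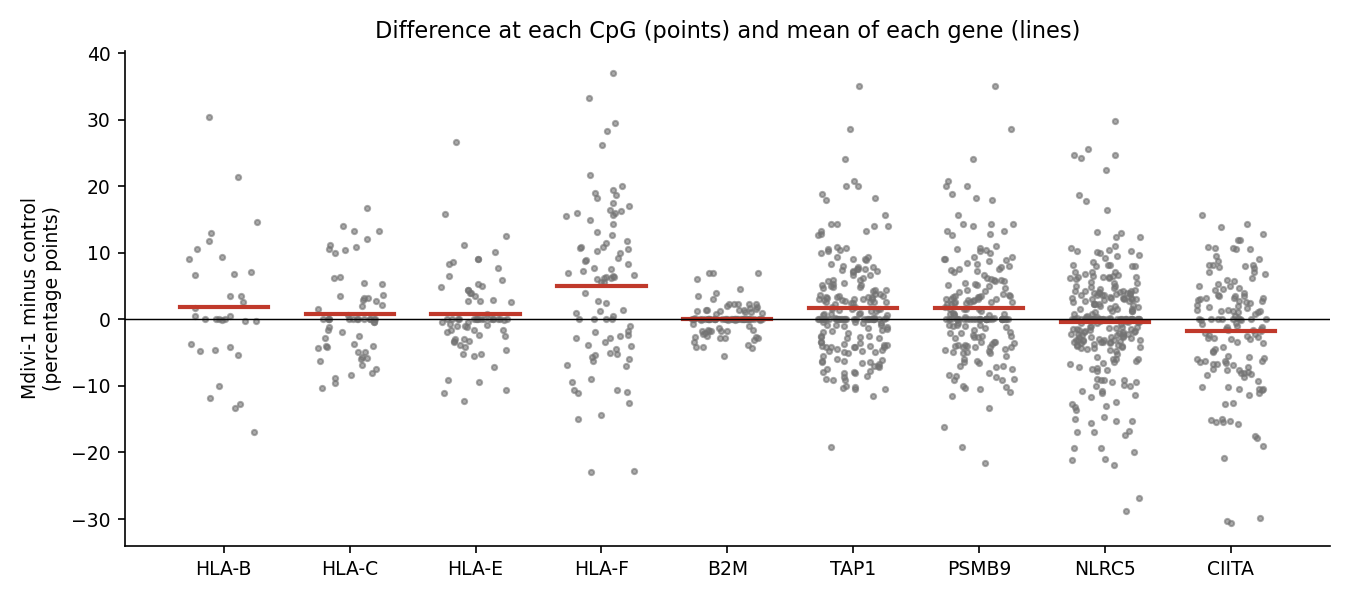
Mdivi-1 minus control (percentage points) at each CpG of the 9 genes, as grey points spread sideways for legibility, with a red line at the mean of each gene. The points of HLA-F centre above 0, with a mean of 5.06 points, and those of B2M stay within 6.99 points of 0; CpGs of TAP1 and PSMB9 are partly the same.

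By annotation, the 291 promoter CpGs of the 9 genes averaged 23.9% in the Mdivi-1 library and 22.0% in the control, a difference of 1.89 points (counting errors 0.459 and 9.50), against 0.275 points over 741975 promoter CpGs of the table. Of those 291, 140 are annotated to the TAP1 promoter and 109 to that of PSMB9, with 97 in both. The 693 other CpGs averaged 37.8% with Mdivi-1 and 37.7% in the control, a difference of 0.0788 points. Island CpGs of the members differed by 1.08 points, shelf CpGs by 1.21, shore CpGs by 0.619 and CpGs outside these classes by -0.578, against 0.269 points for islands, 0.586 for shelves, 0.463 for shores and 0.666 outside them in the whole table. The 31 CpGs of 5' UTRs differed by 3.23 points, against 0.191 points in the table, and 10 of the 31 were those of HLA-F described above. These contrasts between the members and the table have no test, since each group has 1 library.

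**Figure D4:**
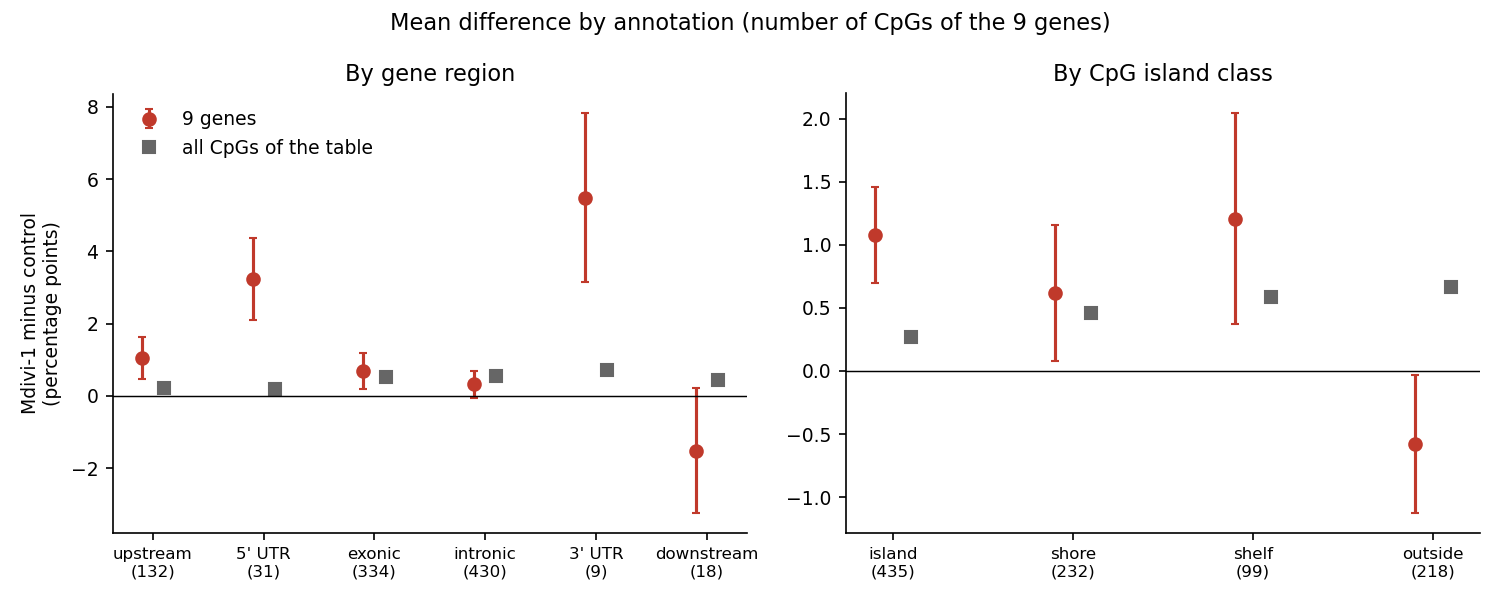
Mean difference, Mdivi-1 minus control (percentage points), by gene region (left) and by CpG island class (right), for the 9 genes (circles, with bars of 1 counting error taking CpGs as independent) and for all CpGs of the table (squares); the panels have different scales. The bars are a lower limit, since with shared reads the error is near 10 points, and the 5' UTR value of 3.23 points rests largely on HLA-F.

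Other genes of the pathway were described by their promoters, counting those with at least 5 CpGs; none met the rule of size. Of 7 other class I and class I-like genes, 4 were measured, 2 higher and 2 lower, with a median difference of 0.755 points, and the largest were HFE, the iron regulator (2.28 points), MICA (1.68) and MICB (-1.09), stress ligands of NKG2D. All 8 genes of peptide loading were measured, 5 higher and 3 lower, with a median of 0.734 points; CALR, a chaperone, differed by 1.99 points, TAP2, the partner of TAP1, by 1.76 and ERAP1, a trimming peptidase, by 1.06. Of 8 proteasome genes, 6 were higher and 2 lower, with a median of 0.441 points and the largest value at PSMB5 (1.29), the constitutive subunit that PSMB8 replaces, then PSMB10 (0.924) and PSMB8 (0.828). Of 21 regulators, 11 were higher and 10 lower, with a median of 0.0686 points; EZH2, the methyltransferase of the Polycomb complex, differed by 1.87 points, NFYB by 1.48 and ATF1 by 1.46. Of 11 class II genes, 8 were measured, 2 higher and 6 lower, with a median of -0.832 points. Over all 23526 promoters, 13692 were higher and 9826 lower, with a median of 0.200 points, and over the 9 members 8 were higher and 1 lower, with a median of 0.825 points. TAP1 and PSMB9 share 97 promoter CpGs, so they are not separate counts. The difference was 0.0299 points at B2M, among the 8, and -0.0742 points at HLA-E, the 1 lower.

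HLA-DMA, a chaperone of class II peptide loading, had the largest difference of the listed promoters with at least 5 CpGs. Its 13 promoter CpGs averaged 54.5% in the Mdivi-1 library and 60.8% in the control, a difference of -6.29 points (counting errors 2.46 and 10.3), with 12 lower and 1 higher. HLA-DPA1 differed by -3.10 points and HLA-DMB by -2.17 points.

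As a check of the cell line by methylation alone, the promoters of 9 sympathetic neuroblastoma genes had a median of 2.03% with Mdivi-1 and 2.31% in the control, though TH was at 54.5% with Mdivi-1 and 53.7% in the control. The COL1A2 promoter, of a fibroblast collagen, was at 95.5% with Mdivi-1 and 94.5% in the control, and that of EPCAM, an epithelial gene, at 88.5% with Mdivi-1 and 90.3% in the control. The other promoters of that list were lower, COL1A1 at 19.1% with Mdivi-1 and 17.9% in the control and KRT8 at 26.3% with Mdivi-1 and 21.9% in the control. The promoter of CD79A, a B cell gene, was at 13.6% with Mdivi-1 and 12.1% in the control.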

How the data were processed

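Genomic DNA of both groups was captured with the SureSelectXT Methyl-Seq kit and sequenced on an Illumina NovaSeq, per the labels' protocols. The submitters' processing notes name BSMAP and hg19, with no version. The authors deposited, per CpG, a methylated fraction and a coverage for each library, the difference of the fractions, and gene, promoter and island annotation. The coverage deposited by the authors is treated as an estimated count because 0.388% of positions are fractional. Control fractions deposited by the authors were whole reads only at a coverage 37/30 times the one given (the median coverages are 37 reads with Mdivi-1 and 30 in the control), a rescaling read from the values and not stated in the sources used here. Methylated reads were recovered by inverting this rescaling. Left out were 10798 of 2773807 positions (0.389%): 10751 with fractional coverage and 47 at which no single whole count was found. Recovery and the rule of size were tested on simulated data. The simulated control was rescaled in the way that recovery inverts, so the simulation cannot show that the submitters rescaled in this way.

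Levels are unweighted means over CpGs, with a minimum of 10 reads per library. Single CpGs had a two-sided Fisher exact test, adjusted over all CpGs. Named were all 9 genes, for each its CpG of smallest p and its 1 kb window of largest absolute difference among those with at least 5 CpGs, and the 3 largest absolute promoter differences of each list, with the same minimum. Position 29692400 and the marker promoters were picked after their values were seen, and some marker promoters are not reported here. The members, lists and rules were chosen with earlier results of these data known, and the rule of size per region and island class was added after the HLA-F value was seen. Software was Biopython 1.88, Matplotlib 3.10.9, Numba 0.67.0, SciPy 1.17.1, pandas 2.3.3, NumPy 2.4.6 and Python 3.11.15.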

Additional observations from a re-analysis of the deposited data

How the results depend on the processing

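The alternatives were minimums of 5, 20 or 30 reads, pooled reads, the deposited fractions, CpGs of no other gene, removal of the deepest CpGs, thinning to equal depth, the region annotation in place of the promoter annotation, and other calling rules. Inclusion of positions of fractional coverage was added after seeing the data. The difference over all member CpGs stayed between 0.237 and 1.13 points, the highest with pooled reads. Pooled reads also gave promoter differences of 4.09 points for HLA-E, 6.68 for TAP1 and 7.31 for PSMB9. A pooled value also depends on how the reads of each library are spread over CpGs of different level. The HLA-E value lay outside the pooled differences of its upstream (-0.773) and intergenic (0.615) CpGs. The region annotation gave -0.680 for TAP1 and -2.67 for PSMB9, over 5' UTR CpGs alone. The cause of these shifts in TAP1 and PSMB9 was not tested. The count of called CpGs was 0 under every rule with an adjusted p and 35 at 20 points with no test. An unadjusted Fisher exact p under 0.05 was met by 14 member CpGs. Over the main values and promoters, 99 of the recomputed values stayed within the 95% counting interval for independent CpGs (the count of calls at 0) and 7 moved further; over single genes and classes these were 371 and 23. The HLA-B promoter had -0.167 points over CpGs of no other gene, and TAP1 and PSMB9 have no value there because each of their promoter CpGs is annotated to another gene. No paired analysis was possible because each group has 1 library. Coverage of the members averaged 44.3 reads with Mdivi-1 and 37.3 in the control, and its part in the absence of called CpGs was not tested.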
